A study of Mus musculus with 3 samples.

Results

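The interferon-induced genes and immune GTPases were chosen by symbol alone, as the genes of the probe annotation whose names begin with Oas, Ifit, Ifih, Irgm, Iigp, Isg, Rsad2, Samd9l, Slfn, Gimap or Zbp1, or with Ifi, Gbp or Mx followed by a digit, with Ifi30 left out. The rule found 52 genes, read by 53 probes, of the 16391 genes named on the array. They were measured in 3 sorted populations of IL-10 Venus reporter mice. In these animals Venus, a yellow fluorescent protein, reports expression of Il10, the gene of an immunosuppressive cytokine. The populations were splenic Venus+ CD138hi cells, bone marrow Venus+ CD138hi cells and splenic B220+ cells, where CD138 (Sdc1) is a surface marker of plasma cells and B220 a form of CD45 (Ptprc) carried by B cells. All came from reporter animals and were taken fresh, and no treatment is labelled. No source used here states the strain, age or number of the animals, or whether several were pooled for a sort. Each population had 1 array, so no test between populations was possible and no p-value is given.

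Interferons of type I signal through the receptor chains Ifnar1 and Ifnar2, the kinases Jak1 and Tyk2 and factors that include Stat2 and Irf9, and the interferon-stimulated response element (ISRE) is the promoter element through which this signal acts. Interferon gamma signals through Ifngr1 and Ifngr2, and its promoter element is the gamma-activated site (GAS). The genes so induced encode sensors and nucleases that act on viral RNA, proteins that block viral entry and replication, and GTPases that attack the vacuoles of intracellular microbes. The Gimap proteins are GTPases of lymphocytes that are known for their part in lymphocyte survival, and they are not classical interferon targets. Ifitm5, known from bone-forming cells, Isg20l1, the nuclease now called Aen that is induced by p53, and Isg20l2, a nucleolar nuclease, also enter by name rather than by a known induction.

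Promoters, taken from RefSeq (GRCm38.p6) as the 250 bases before and 50 after an annotated transcript start, were listed for 44 of the 52 members. The core of the ISRE, a GAAA box, any 2 bases and another GAAA box on either strand, occurred in the promoters of 17 of these 44 genes (38.6%), against 1079 of 27025 genes of the whole promoter table (3.99%). The GAS letters, TTCNNNGAA, occurred for 12 of the 44 (27.3%), against 9.55% of all genes. Where a GAS match overlapped an ISRE match, both were counted. None of the promoters of the Gimap genes, Samd9l, Isg20, Oasl1 or Oasl2 held the ISRE core. A match is a run of letters and not a measured binding site.

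Of 3 families on chromosomes 1, 5 and 3, a pair of promoters each is printed here as an example. Both of each pair held the ISRE core while their signals, given further on, went opposite ways in at least 1 comparison. The same held for Ifit1 with Ifit3 and for Slfn5 with Slfn8, which are not printed. Capitals mark the ISRE core on the strand shown or its reverse complement, and each sequence runs 5′ to 3′ on the strand of its gene. Ifi203 (at the one of its annotated starts that holds the core, chr1:173942443-173942742, minus strand) and Ifi205 (chr1:174031706-174032005, minus strand) encode relatives of the DNA sensor AIM2. Oas3 (chr5:120777610-120777909, minus strand) and Oas1a (chr5:120907476-120907775, minus strand) encode enzymes that make 2-5A, the activator of the antiviral nuclease RNase L. Gbp5 (chr3:142496684-142496983, plus strand) and Gbp2 (chr3:142620413-142620712, plus strand) encode guanylate-binding proteins.
Ifi203: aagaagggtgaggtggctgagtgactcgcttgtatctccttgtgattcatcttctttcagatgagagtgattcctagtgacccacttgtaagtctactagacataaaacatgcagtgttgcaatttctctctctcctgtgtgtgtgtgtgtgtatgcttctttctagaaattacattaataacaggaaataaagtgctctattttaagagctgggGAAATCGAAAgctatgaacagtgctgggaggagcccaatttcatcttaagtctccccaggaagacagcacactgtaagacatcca
Ifi205: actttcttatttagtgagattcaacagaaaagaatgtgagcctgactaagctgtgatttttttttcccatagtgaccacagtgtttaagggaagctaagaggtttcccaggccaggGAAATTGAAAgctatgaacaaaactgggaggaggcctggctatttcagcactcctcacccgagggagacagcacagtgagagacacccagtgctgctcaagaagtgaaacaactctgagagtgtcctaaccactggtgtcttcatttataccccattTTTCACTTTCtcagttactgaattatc
Oas3: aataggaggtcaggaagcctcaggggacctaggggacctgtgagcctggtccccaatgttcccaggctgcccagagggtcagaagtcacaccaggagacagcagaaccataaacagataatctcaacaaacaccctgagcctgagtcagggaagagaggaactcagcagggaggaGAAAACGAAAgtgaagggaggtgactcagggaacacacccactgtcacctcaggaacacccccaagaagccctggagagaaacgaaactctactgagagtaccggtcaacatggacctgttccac
Oas1a: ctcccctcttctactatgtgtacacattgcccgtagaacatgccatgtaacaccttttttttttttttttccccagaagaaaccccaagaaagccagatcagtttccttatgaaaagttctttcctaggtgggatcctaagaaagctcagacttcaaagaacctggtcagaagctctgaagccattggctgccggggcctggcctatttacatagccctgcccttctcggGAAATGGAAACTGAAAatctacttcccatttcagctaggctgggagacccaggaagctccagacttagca
Gbp5: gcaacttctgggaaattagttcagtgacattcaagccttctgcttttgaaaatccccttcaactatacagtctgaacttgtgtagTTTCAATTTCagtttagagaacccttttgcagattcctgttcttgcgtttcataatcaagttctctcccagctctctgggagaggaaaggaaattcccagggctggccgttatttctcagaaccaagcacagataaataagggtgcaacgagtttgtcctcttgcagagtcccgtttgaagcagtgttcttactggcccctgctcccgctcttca
Gbp2: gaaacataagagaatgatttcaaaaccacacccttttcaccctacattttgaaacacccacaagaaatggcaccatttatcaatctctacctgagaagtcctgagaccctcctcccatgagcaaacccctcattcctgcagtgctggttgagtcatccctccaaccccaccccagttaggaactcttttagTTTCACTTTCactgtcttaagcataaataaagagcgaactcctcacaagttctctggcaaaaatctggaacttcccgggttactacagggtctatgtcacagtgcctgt

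**Figure D1:**
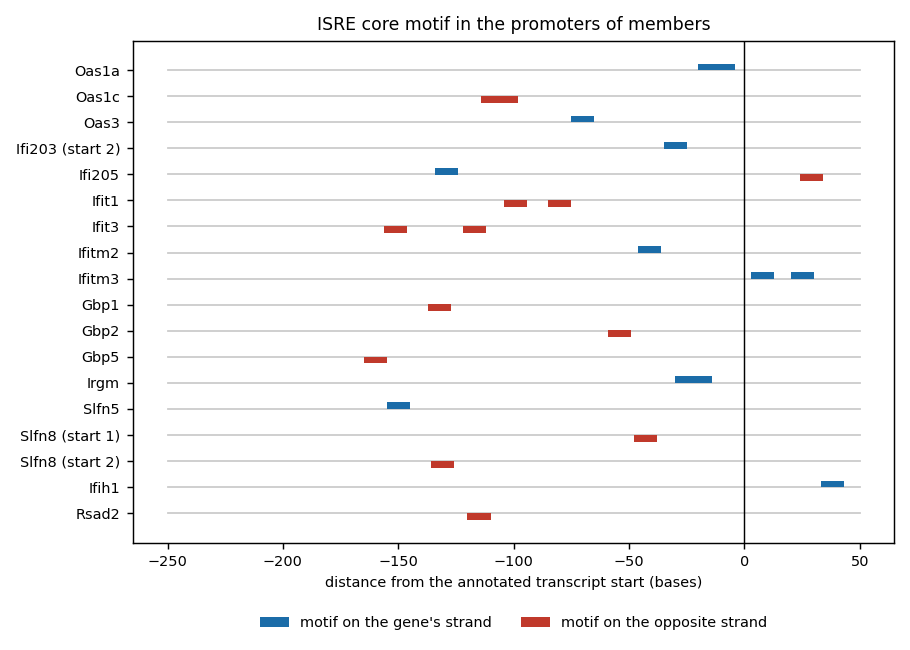
Position of the ISRE core in the 17 member genes that held it. The x axis is the distance in bases from the annotated transcript start (negative before it), each grey line is 1 promoter, and blocks mark matches on the gene's strand (blue) or the opposite strand (red). Most matches lie before the start, and those of Ifih1, Ifitm3 and 1 of the 2 of Ifi205 lie after it.

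A signal is given as the blank-subtracted brightness of a probe, scaled so that the median of the detected probes of each array is 25. It is set only against the same probe on another array. Sums over several marker genes are likewise compared only between arrays, and bright probes weigh most in them. A log2 ratio carries a spot error, which combines the spread of blank and control spots on both arrays and leaves out any spread between animals or sorts. The lowest detected signals were 1.74 in spleen Venus+, 2.35 in bone marrow Venus+ and 1.34 in B220+ cells. For a gene detected on 1 array of a pair, "at least" gives its signal over the higher of the other array's lowest detected signal and the probe's own value there, with both read on arrays that have no replicate. The sort labels were checked against marker genes. The 7 plasma cell markers summed to 25586 in spleen Venus+, 27590.0 in bone marrow Venus+ and 2377 in B220+ cells, and the 7 B cell markers to 10149 in spleen Venus+, 4206 in marrow Venus+ and 27626 in B220+ cells. Genes listed as markers of other cells gave signal as well. The 12 T cell markers summed to 1613 in spleen Venus+, 1658 in marrow Venus+ and 437 in B220+ cells, with Cd3e and Cd3g not detected in B220+ cells. The 8 neutrophil markers summed to 114 in spleen Venus+, 533 in marrow Venus+ and 4960 in B220+ cells (5 of them, S100a9, Camp, Ltf, Mpo and Csf3r, undetected in spleen Venus+ cells), and the 10 monocyte and macrophage markers to 151 in spleen Venus+, 285 in marrow Venus+ and 97.5 in B220+ cells. Single markers carried these sums. Cd68 alone read 111 in spleen Venus+, 241 in marrow Venus+ and 33.0 in B220+ cells, while Ccr2 and C1qa were detected in B220+ cells alone and 6 of the 10 monocyte and macrophage markers were undetected in spleen Venus+ cells. Of the T cell markers, Cd28 and Cd247 held most of the Venus+ sums, and Cd2, at 381, held most of the B220+ sum. Cd2 was lower in marrow Venus+ than in B220+ cells (log2 ratio −5.51). Of the neutrophil markers, 5 were at least 2-fold lower and Mpo and Ly6g higher in marrow Venus+ than in B220+ cells. Whether the sorted cells themselves or other cells gave these signals was not tested, so the sums do not measure the content of other cells. The part of other cells in the results below was not tested either.

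Most members were measurable. Of the 52 genes, 45 were detected in spleen Venus+ cells, 38 in marrow Venus+ cells and 47 in B220+ cells, and 36 on all 3 arrays (69.2%, against 65.7% of all genes). Ifi202a, Oas1f and Ifi44 were detected on none (5.77%, against 20.1% of all genes).

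The members did not move as 1 block between Venus+ and B220+ cells. In spleen Venus+ against B220+ cells, 43 were detected on both arrays, of which 5 (11.6%) lay at least 2-fold above and 11 (25.6%) at least 2-fold below the B220+ level. Over all 11619 genes detected on both arrays 15.7% were higher and 16.5% lower by that measure (32.2% either way). The median log2 ratio was −0.65, against −0.02 over all genes, and 15 ratios were positive and 28 negative. The split of higher and lower members was 8 and 8 with the blank level from spots without a probe and 1 and 15 with the normexp background. With that blank level the median of all genes moved as well, to 0.34, and that of the members was −0.34. With normexp these medians were −0.14 and −0.50. The shares of all genes at 2-fold were not computed for these settings. Of the 49 members detected on either array of this pair, 2 were detected in spleen Venus+ but not B220+ cells (Ifit1 and Oas3). Another 4 were detected in B220+ but not spleen Venus+ cells (Oas1d, Ifit2, Ifit3 and Ifitm6). Over all genes detected on either array, 6.20% and 4.22% were of these kinds. In a sorted population, fewer cells that express a gene and less RNA of it in each cell cannot be told apart, here and in all that follows.

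In bone marrow Venus+ against B220+ cells the differences were wider. Of 36 members detected on both arrays, 8 (22.2%) were higher and 19 (52.8%) lower at 2-fold. Over all 10814 genes the shares were 22.4% higher and 30.7% lower (53.1% either way). The median log2 ratio was −1.14, against −0.24 over all genes. Of the 49 members detected on either array of this pair, 11 were detected in B220+ but not marrow Venus+ cells. A bound of at least 2-fold was held by 8 of these 11. Ifit1 and Oas3 were detected in marrow Venus+ but not B220+ cells. Over all genes detected on either array, 10.5% and 5.53% were of these kinds. Both comparisons share the B220+ array. With the normexp background, Gbp5, Ifi203, Mx2, Oas1h, Oas2, Slfn4 and Slfn5 came under 2-fold in spleen Venus+ cells, and Gbp2, Iigp1, Isg20l2, Oas1h, Oasl2, Slfn5 and Zbp1 in marrow Venus+ cells. Slfn5 did so also with quantile normalization and Slfn4 with the blank level from spots without a probe, both in the spleen. With the 8 Gimap genes left out, the medians were −0.31 for spleen Venus+ and −0.48 for bone marrow Venus+ cells.

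**Figure D2:**
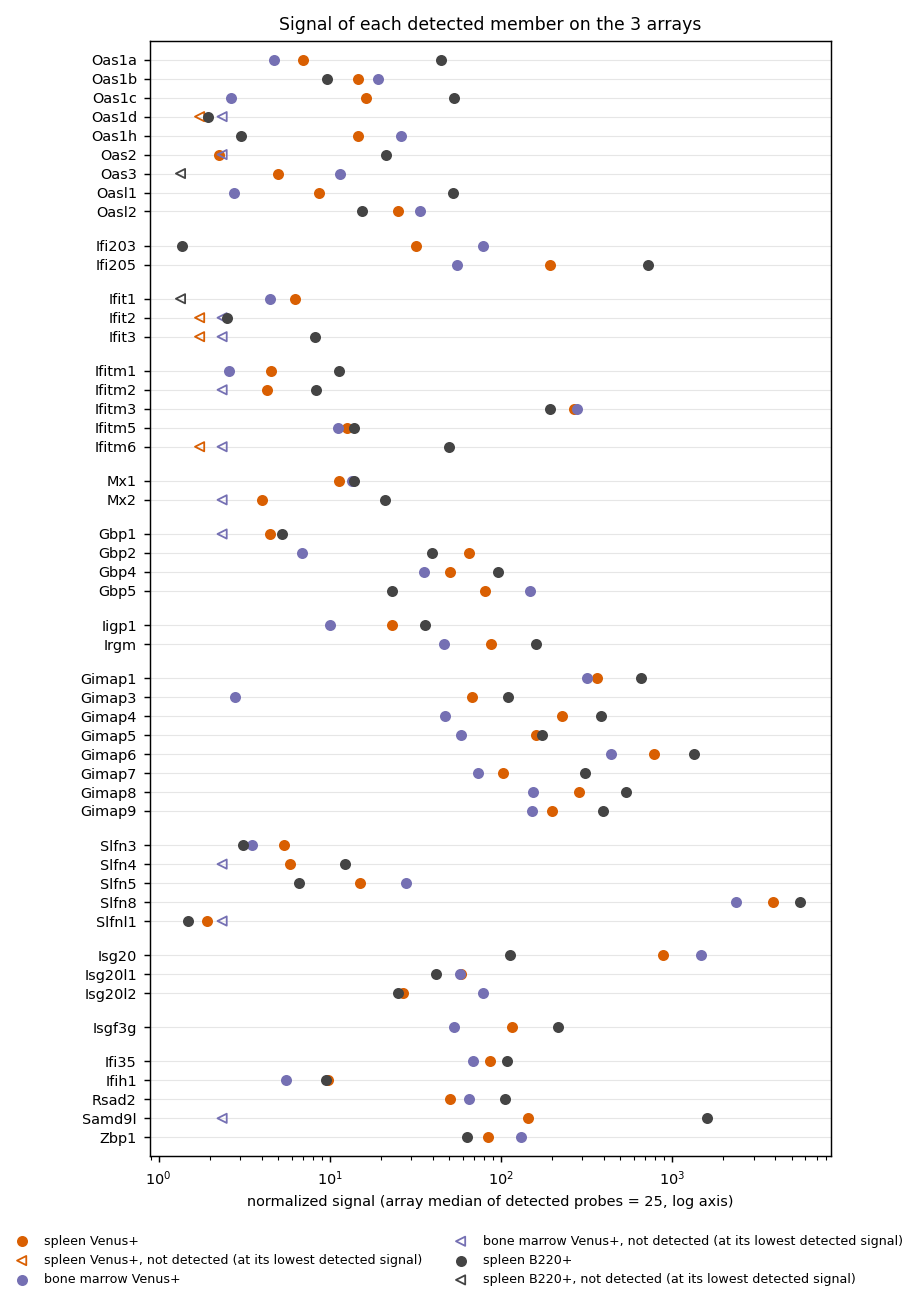
Normalized signal (log axis, median of detected probes 25) of the 49 members detected on at least 1 array, grouped by family. Orange circles are spleen Venus+, violet circles bone marrow Venus+ and dark circles B220+ cells; open triangles stand at an array's lowest detected signal for a member not detected there. The 8 Gimap genes run from bone marrow Venus+ at the low end to B220+ at the high end, Isg20 and Gbp5 run the other way, and the Oas family holds both orders.

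**Figure D3:**
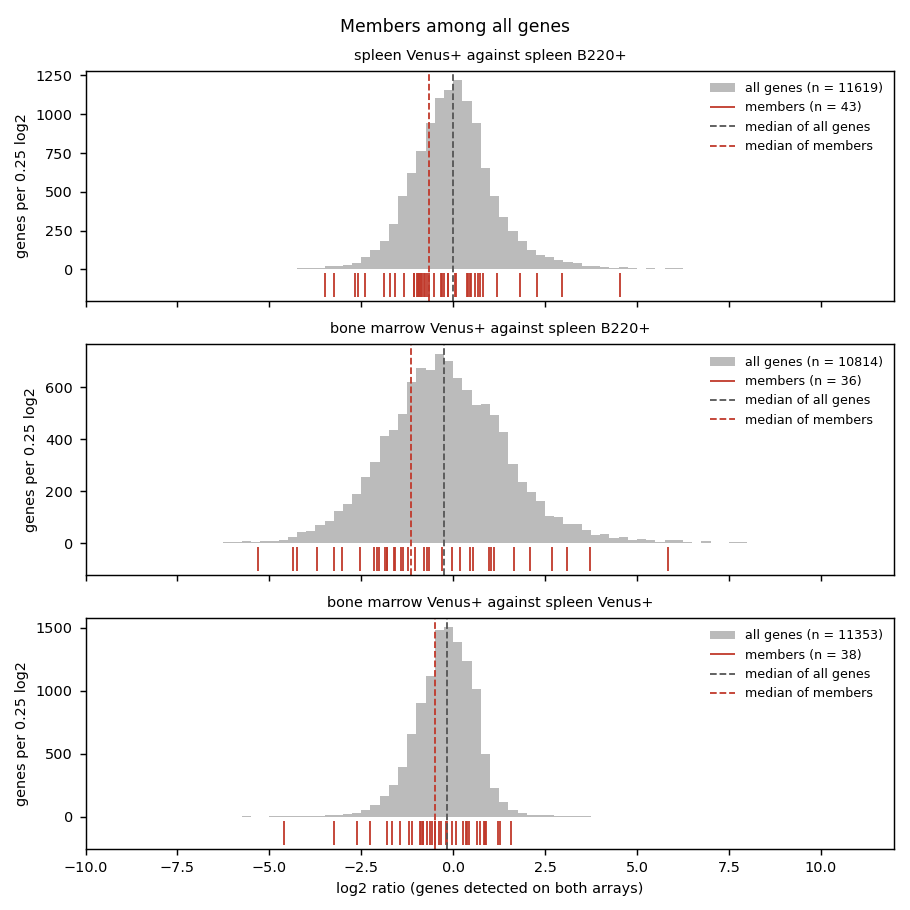
Histograms (y axis, genes per 0.25 log2) of the log2 ratio of all genes detected on both arrays of a pair, with the members as red ticks below and dashed lines at the medians. As processed here, the members' median lies left of that of all genes in each pair, at −0.65 against −0.02, −1.14 against −0.24 and −0.49 against −0.17. Single members reach far to both sides. Without dim probes the medians of the last pair are −0.26 against −0.24.

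Among the Oas genes, which were grouped by name and not by enzyme activity, the signals split. Oas1a had signals of 7.01 in splenic and 4.74 in marrow Venus+ cells, against 44.8 in B220+ cells, log2 ratios of −2.68 ± 0.23 in spleen and −3.24 ± 0.38 in marrow. Oas1c had signals of 16.2 in spleen and 2.64 in marrow Venus+, against 53.6 in B220+ cells (log2 ratio −1.72 ± 0.16 in spleen, −4.35 ± 0.66 in marrow). Oas2 read 2.26 in spleen Venus+ and 21.5 in B220+ cells (−3.25 ± 0.57) and was not detected in bone marrow Venus+ cells, where it was at least 9.13-fold lower than in B220+ cells. All of these were brightest in B220+ cells. Oas3 was the reverse, with signals of 5.01 in Venus+ cells of spleen and 11.6 in those of bone marrow and none detected in B220+ cells, so at least 3.73-fold higher in spleen and 8.60-fold higher in marrow Venus+ cells. Oas1h, a member of the Oas1 cluster, also had higher signals in Venus+ cells, 14.7 in spleen and 26.1 in marrow Venus+, against 3.05 in B220+ cells (log2 ratio 2.27 ± 0.36 in spleen, 3.10 ± 0.35 in marrow). Oas1b read 14.7 in spleen and 19.1 in marrow Venus+, against 9.68 in B220+ cells (log2 ratio 0.60 in spleen, 0.98 in marrow), below the 2-fold mark. Its probe symbol is also a synonym of Oas1g, so which gene it reads is not settled.

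The Oas-like pair split too. Oasl1, which in mouse restrains translation of the interferon regulator Irf7, had signals of 8.72 in splenic and 2.75 in marrow Venus+ cells, against 52.6 in B220+ cells (log2 ratio −2.59 ± 0.20 in spleen, −4.26 ± 0.63 in marrow). Oasl2 had 25.0 in spleen and 33.7 in marrow Venus+, against 15.5 in B220+ cells (log2 ratio 0.69 in spleen, 1.12 ± 0.15 in marrow). Of the 10 Oas genes, spleen Venus+ cells had 1 higher and 4 lower at 2-fold among 7 detected on both arrays, and bone marrow Venus+ cells 2 higher and 3 lower among 6. The shares over all genes were 15.7% higher and 16.5% lower in spleen and 22.4% higher and 30.7% lower in marrow Venus+ cells. Oas1d was seen in B220+ cells alone, at 1.95, near the limit. Probe sequences were not in the files used here, so how far probes of such closely related genes read each other's RNA was not tested.

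The Ifi200 genes, whose proteins sense DNA or regulate transcription, split widely. Ifi203 had signals of 32.1 in Venus+ cells of spleen and 78.3 in those of bone marrow, against 1.37 in B220+ cells, just above that array's limit of 1.34. The log2 ratios were 4.55 ± 0.72 in spleen and 5.83 ± 0.72 in marrow, and with the blank level taken from spots without a probe Ifi203 was not detected in B220+ cells. Ifi205 went the other way, with 194.6 in spleen and 55.7 in marrow Venus+, against 722 in B220+ cells (log2 ratio −1.89 ± 0.14 in spleen, −3.70 ± 0.14 in marrow). A second Ifi205 probe was not detected on any array. Both genes lie in the same cluster on chromosome 1 and both promoters printed above hold the ISRE core.

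The Ifit genes, whose proteins bind foreign RNA, were near or below detection. Ifit1 read 6.27 in splenic and 4.46 in marrow Venus+ cells and was not detected in B220+ cells, so at least 4.67-fold higher in spleen and 3.32-fold higher in marrow Venus+ cells. Ifit3 read 8.16 in B220+ cells and was detected in neither Venus+ population, so at least 4.70-fold lower in spleen and 3.47-fold lower in bone marrow Venus+ cells. Ifit2 read 2.50 in B220+ cells alone. The promoters of Ifit1 and Ifit3 each held the ISRE core 2 times.

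The Ifitm proteins sit in membranes and hinder virus entry. Ifitm3, the best known of them, was detected on all arrays, with signals of 268 in Venus+ cells of spleen and 280.4 in those of bone marrow, against 193.7 in B220+ cells, log2 ratios of 0.47 in spleen and 0.53 in marrow that turned to −0.02 in spleen and −0.11 in marrow with the normexp background. Ifitm1 had 4.55 in spleen and 2.58 in marrow Venus+, against 11.4 in B220+ cells (log2 ratio −1.32 ± 0.32 in spleen, −2.14 ± 0.68 in marrow). Ifitm2 had 4.28 in spleen Venus+ and 8.30 in B220+ cells (−0.96 ± 0.34) and was at least 3.53-fold lower in bone marrow Venus+ cells. Ifitm6, which is found in myeloid cells, had a signal of 50.1 in B220+ cells and was detected in neither Venus+ population, so at least 28.8-fold lower in spleen and 21.3-fold lower in marrow Venus+ cells. The neutrophil markers S100a8 and Ngp were also lower in both Venus+ populations (S100a8 12.5 in spleen and 66.8 in marrow Venus+, against 1649 in B220+ cells), whereas Ly6g was higher in both (99.6 in spleen and 334 in marrow Venus+, against 38.9 in B220+ cells). Their part in the Ifitm6 difference was not tested. Ifitm5 differed little, with 12.6 in spleen Venus+, 11.2 in marrow Venus+ and 13.8 in B220+ cells.

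Of the Mx GTPases, which block virus replication, Mx1 was level and Mx2 was not. Mx1 had signals of 11.3 in spleen Venus+, 13.6 in bone marrow Venus+ and 13.9 in B220+ cells (log2 ratio −0.31 in spleen, −0.04 in marrow). Mx2 had 4.0 in spleen Venus+ and 21.0 in B220+ cells (−2.39 ± 0.34) and was at least 8.92-fold lower in bone marrow Venus+ cells. The RefSeq table of GRCm38.p6 lists Mx1, Mx2 and Oas1b as transcribed pseudogenes of the reference strain, so their signals report RNA and say nothing of protein.

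The Gbp GTPases, which are strongly induced by interferon gamma, differed among themselves. Gbp5 was higher in both Venus+ populations, with signals of 80.8 in spleen and 148 in bone marrow, against 23.1 in B220+ cells, log2 ratios of 1.80 ± 0.14 in spleen and 2.68 ± 0.14 in marrow. Gbp2 had 65.1 in splenic and 6.85 in marrow Venus+ cells, against 39.5 in B220+ cells. Its log2 ratio was 0.72 ± 0.14 in spleen and −2.53 ± 0.28 in marrow, so the Venus+ populations stood on opposite sides of B220+ cells. Gbp4 had 50.3 in spleen and 35.8 in marrow Venus+, against 96.2 in B220+ cells (log2 ratio −0.93 in spleen, −1.43 ± 0.14 in marrow), and its symbol is also a synonym of Gbp3, so which gene the probe reads is not settled. Gbp1, now Gbp2b, had 4.45 in spleen Venus+ and 5.28 in B220+ cells (−0.25 ± 0.36) and was at least 2.25-fold lower in bone marrow Venus+ cells.

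Immunity-related GTPases act on the vacuoles of intracellular parasites and bacteria, and both members of this family were lower in bone marrow Venus+ cells. Iigp1 had signals of 23.0 in Venus+ cells of spleen and 10.1 in those of bone marrow, against 36.1 in B220+ cells (log2 ratio −0.65 in spleen, −1.84 in marrow). Irgm, now Irgm1, had 87.3 in spleen and 46.5 in marrow Venus+, against 160.5 in B220+ cells (log2 ratio −0.88 in spleen, −1.79 in marrow). Both had the same order, bone marrow Venus+ lowest and B220+ highest. Of 3 related genes outside the symbol rule, Irgq was higher in both Venus+ populations (log2 ratio 1.58 in spleen, 1.22 in marrow), Gvin1 was lower in marrow (log2 ratio −0.40 in spleen, −1.62 in marrow) and Tgtp1 stayed under 2-fold (log2 ratio −0.96 in spleen, −0.63 in marrow).

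The 8 Gimap genes, which lie together on chromosome 6, had their highest signal in B220+ cells and their lowest in marrow Venus+ cells, although Gimap1 stood 0.14 higher in marrow than in spleen Venus+ cells with all-array scaling. In spleen Venus+ against B220+ cells the log2 ratio was negative for 8 of 8, with a median of −0.82 and 1 gene at least 2-fold lower, although Gimap5 turned to 0.22 with quantile normalization and 0.23 with the blank level from spots without a probe. With the normexp background 6 of the 8 were at least 2-fold lower there, with a median of −1.24. In bone marrow Venus+ against B220+ cells 8 of 8 were at least 2-fold lower, with a median of −1.71. Gimap3 had the widest ratio of these as processed here, with signals of 67.9 in splenic and 2.80 in marrow Venus+ cells, against 110.7 in B220+ cells, log2 ratios of −0.71 in spleen and −5.30 ± 0.62 in marrow, or 39.5-fold lower in bone marrow. Its bone marrow signal lay just above the limit of 2.35, and with the normexp background its marrow ratio was −2.07, smaller than the −2.77 of Gimap4 (−3.03 as processed here). Gimap4 followed, with signals of 227 in spleen Venus+, 47.0 in marrow Venus+ and 384 in B220+ cells (log2 ratio −0.76 in spleen, −3.03 in marrow), and Gimap7 had 103.6 in spleen Venus+, 73.4 in marrow Venus+ and 309 in B220+ cells (log2 ratio −1.58 in spleen, −2.07 in marrow). Gimap1 had the smallest bone marrow difference, with 365 in spleen Venus+, 319 in marrow Venus+ and 657 in B220+ cells (log2 ratio −0.85 in spleen, −1.04 in marrow). The other four lay between. Gimap5 had 159.6 in spleen Venus+, 58.3 in marrow Venus+ and 175 in B220+ cells (log2 ratio −0.13 in spleen, −1.59 in marrow), Gimap6 had 781 in spleen Venus+, 439.6 in marrow Venus+ and 1349.9 in B220+ cells (log2 ratio −0.79 in spleen, −1.62 in marrow), Gimap8 had 285 in spleen Venus+, 155 in marrow Venus+ and 540.3 in B220+ cells (log2 ratio −0.92 in spleen, −1.80 in marrow) and Gimap9 had 199 in spleen Venus+, 151 in marrow Venus+ and 393 in B220+ cells (log2 ratio −0.99 in spleen, −1.38 in marrow). T cells also express Gimap genes. Of the 12 T cell markers, 10 were detected in both spleen Venus+ and B220+ cells, with 6 at least 2-fold higher and 0 lower. In marrow Venus+ cells 5 were higher and 1, Cd2, lower of 8, with Zap70 and Thy1 undetected there. Over all genes 15.7% were higher and 16.5% lower in spleen, and 22.4% higher and 30.7% lower in marrow Venus+ cells. The part of T cell RNA in the Gimap differences was not tested. The direction in bone marrow Venus+ cells held under each background and scaling tried, in which 5 to 8 of the genes were 2-fold lower and Gimap3 was not measured with the blank level from spots without a probe.

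The Schlafen genes, which act in lymphocyte quiescence and against viruses, were split. Slfn5 had signals of 15.1 in Venus+ cells of spleen and 28.1 in those of bone marrow, against 6.62 in B220+ cells (log2 ratio 1.19 ± 0.22 in spleen, 2.09 ± 0.21 in marrow). Slfn8 was lower in marrow Venus+ cells, with 3913 in spleen Venus+, 2375 in marrow Venus+ and 5605 in B220+ cells (log2 ratio −0.52 in spleen, −1.24 ± 0.13 in marrow). Slfn4, which is expressed in myeloid cells, had 5.87 in spleen Venus+ and 12.2 in B220+ cells (−1.06 ± 0.27) and was at least 5.20-fold lower in bone marrow Venus+ cells. The part of neutrophil RNA in this difference was not tested, and that list held markers that were lower and markers that were higher in marrow Venus+ cells, as given above. Slfn3 had 5.44 in spleen Venus+, 3.54 in marrow Venus+ and 3.12 in B220+ cells (log2 ratio 0.80 ± 0.41 in spleen, 0.18 in marrow), and Slfnl1 was near the limits with 1.91 in spleen Venus+ and 1.48 in B220+ cells.

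Isg20, a nuclease that degrades single-stranded RNA, was higher in both Venus+ populations. Its signals were 882 in splenic and 1474 in marrow Venus+ cells, against 112.8 in B220+ cells, or 7.82-fold higher in spleen and 13.1-fold higher in marrow Venus+ cells (log2 ratio 2.97 ± 0.14 in spleen, 3.71 ± 0.13 in marrow). The difference stayed above 2-fold in both comparisons under every background, scaling and filter tried. Its relative Isg20l2 was level in spleen Venus+ and higher in bone marrow Venus+ cells, with 26.8 in spleen and 79.1 in marrow Venus+, against 25.2 in B220+ cells (log2 ratio 0.09 in spleen, 1.65 ± 0.14 in marrow). Isg20l1 had 58.7 in spleen Venus+, 57.6 in marrow Venus+ and 42.0 in B220+ cells (log2 ratio 0.48 in spleen, 0.45 in marrow). Isgf3g, the DNA-binding subunit now called Irf9, had 116.8 in spleen Venus+, 53.3 in marrow Venus+ and 215 in B220+ cells (log2 ratio −0.88 in spleen, −2.01 in marrow), lowest in bone marrow Venus+ cells.

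The members outside these families held the largest lower bound of the set. Samd9l, an antiviral factor that restrains growth of blood cells, had a signal of 144.7 in spleen Venus+ cells and was not detected in bone marrow Venus+ cells, against 1609 in B220+ cells. It was 11.1-fold lower in spleen Venus+ (−3.48 ± 0.14) and at least 684-fold lower in bone marrow Venus+ cells. Rsad2, which encodes the antiviral enzyme viperin, had 50.5 in spleen Venus+, 64.9 in marrow Venus+ and 106 in B220+ cells (log2 ratio −1.07 ± 0.14 in spleen, −0.71 in marrow). Zbp1, a sensor of Z-form nucleic acid that triggers cell death, had 84.0 in spleen Venus+, 130.4 in marrow Venus+ and 63.5 in B220+ cells (log2 ratio 0.40 in spleen, −0.05 with normexp, and 1.04 ± 0.13 in marrow). The RNA sensor Ifih1 (MDA5) had 9.83 in spleen Venus+, 5.53 in marrow Venus+ and 9.54 in B220+ cells (log2 ratio 0.04 in spleen, −0.79 in marrow), and Ifi35 had 86.3 in spleen Venus+, 68.9 in marrow Venus+ and 108.4 in B220+ cells (log2 ratio −0.33 in spleen, −0.65 in marrow).

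**Figure D4:**
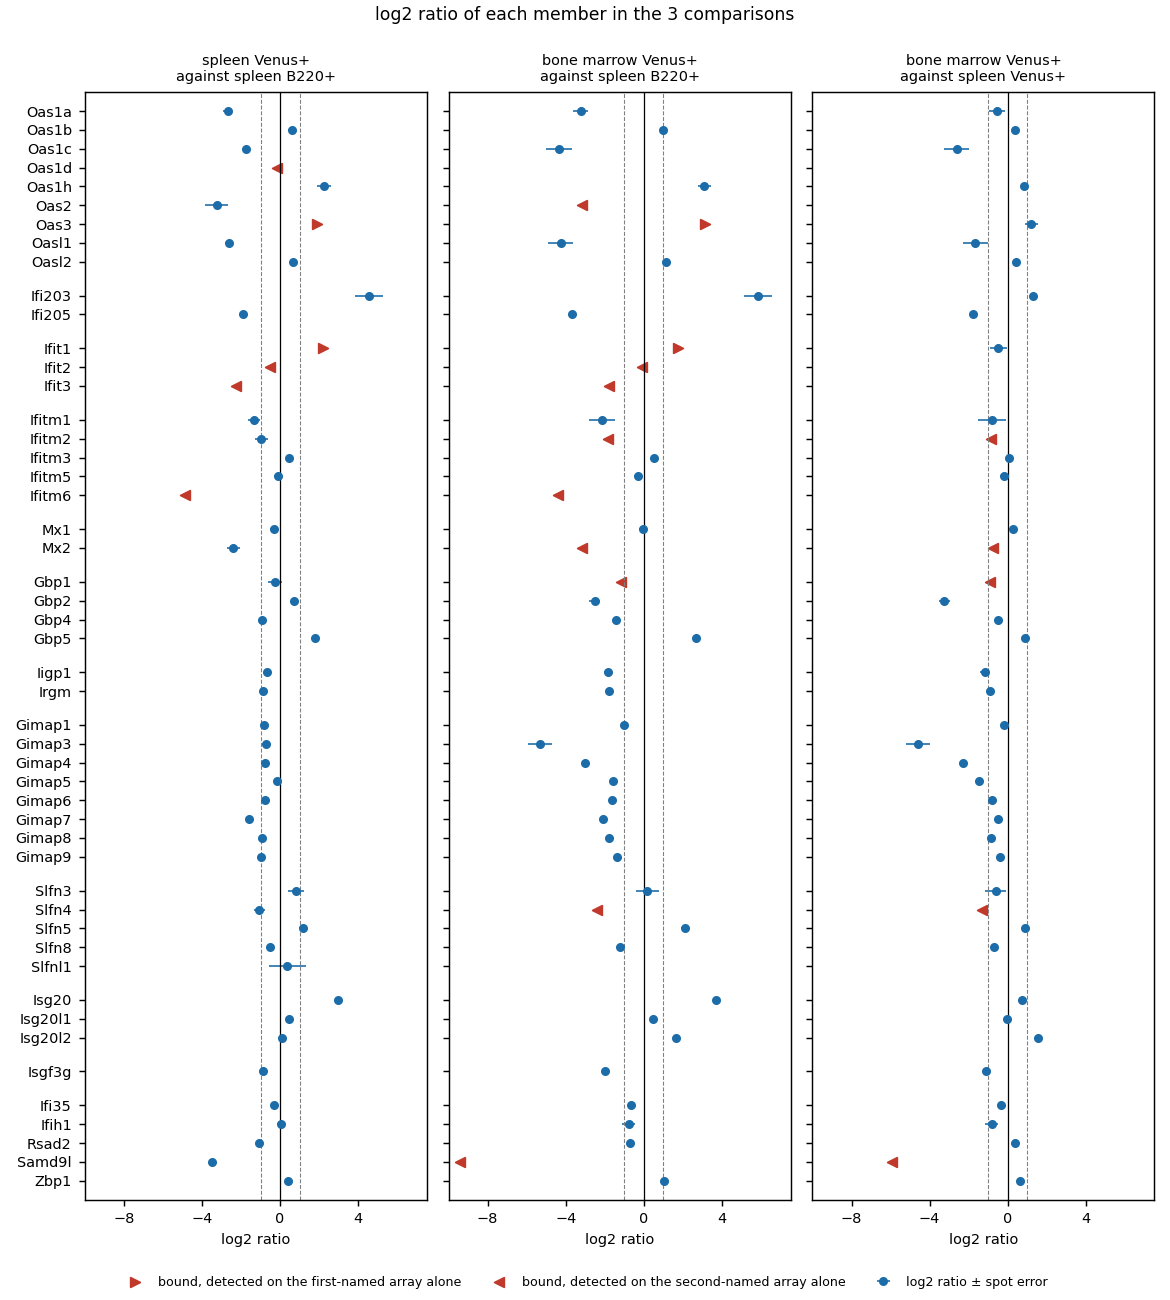
The log2 ratio of each member (x axis) in the 3 pairs of arrays, by family. Blue points carry the spot error as bars, red triangles are lower bounds for members detected on 1 array of the pair, and dashed lines mark 2-fold. Ifi203, Isg20 and Gbp5 lie right of the 2-fold line against B220+ cells in both Venus+ populations, Samd9l and Ifi205 lie left of it, and Gbp2 lies on opposite sides of 0.

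Bone marrow and spleen Venus+ cells were also set against each other. Of 38 members detected in both, 3 (7.89%) were at least 2-fold higher in bone marrow and 9 (23.7%) at least 2-fold lower, where over all 11353 genes 4.33% were higher and 15.2% lower (19.5% either way). The median was −0.49, against −0.17 over all genes. This gap depended on the processing, with medians of −0.26 against −0.24 without dim probes and −0.09 against −0.05 with the normexp background. With all-array scaling, which uses only probes detected in each population, the split was 7 higher and 7 lower. That scaling moved the median of all genes to 0.16, with the members' median at −0.16. Of the 45 members detected on either array of this pair, 0 were detected in marrow but not spleen Venus+ cells. Another 7 were detected in spleen but not marrow Venus+ cells (1.37% and 8.49% of all genes). Of these 7, Samd9l was at least 61.5-fold lower in bone marrow. The 3 higher genes were Isg20l2 (1.56 ± 0.12), Ifi203 (1.29 ± 0.12) and Oas3 (1.21 ± 0.31). The lowest were Gimap3 (−4.60 ± 0.62), Gbp2 (−3.25 ± 0.27, or 9.50-fold), Oas1c (−2.62 ± 0.66), Gimap4 (−2.27) and Ifi205 (−1.81 ± 0.12), and the other lower ones were Oasl1 (−1.67 ± 0.64), Gimap5 (−1.45), Iigp1 (−1.19) and Isgf3g (−1.13). Positive ratios under 2-fold included those of Slfn5 (0.90), Gbp5 (0.87), Oas1h (0.83), Isg20 (0.74) and Zbp1 (0.64). With the normexp background Isg20l2, Ifi203 and Oas3 on the higher side and Oasl1, Oas1c, Iigp1 and Isgf3g on the lower side came under 2-fold. The tissue and the sort differ together here, as the spleen and bone marrow cells come from different organs and each from 1 array.

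Across the 3 arrays, 36 members were detected on all. In 20 of these (55.6%) the signal was lowest in bone marrow Venus+, higher in spleen Venus+ and highest in B220+ cells, an order held by 40.8% of the 10770 genes detected on all arrays. The opposite order was held by 10 (27.8%, against 30.1% of all genes), among them Isg20, Gbp5, Ifi203, Oas1h and Slfn5. Spleen Venus+ cells were highest for 4 and lowest for 2. These orders share the same arrays and are given as a description.

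Members with and without the ISRE core lay on both sides of B220+ cells. Of the 17 genes that held it, 14 were detected in both spleen Venus+ and B220+ cells, with 3 higher and 4 lower at 2-fold and a median log2 ratio of −0.38. The 27 genes with a promoter and no core had 22 detected on both, with 2 higher and 5 lower and a median of −0.73. In bone marrow Venus+ against B220+ cells the counts were 3 higher and 6 lower of 12 (median −1.01) with the core, and 4 higher and 11 lower of 19 (median −1.38) without it. The genes without the core include the 8 Gimap genes, of which 1 was lower in the spleen comparison and 8 in the marrow comparison. These groups were not compared with the Gimap genes left out, so their medians do not rank genes with and without the core. Over all genes, 15.7% were higher and 16.5% lower in the spleen comparison (median −0.02), and 22.4% higher and 30.7% lower in the marrow comparison (median −0.24).

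The pathway above these genes was described by lists that leave the members out. These lists were not read under the other backgrounds and scalings. Beside their counts stand the shares of all genes, which were 15.7% higher and 16.5% lower in spleen Venus+ (median −0.02) and 22.4% higher and 30.7% lower in marrow Venus+ against B220+ cells (median −0.24). Of 12 receptors, kinases and STATs on the array, 11 were detected on both arrays of each pair. In spleen Venus+ against B220+ cells 0 reached 2-fold on the higher side and 6 on the lower (median −1.07), and in marrow Venus+ cells 0 were higher and 7 lower (median −1.64). Another 6 genes encode phosphatases and inhibitors of this signal, with 1 higher and 2 lower in spleen and 0 higher and 4 lower in marrow Venus+ cells. Jak1, the kinase shared by the interferon receptors, had signals of 332 in Venus+ cells of spleen and 97.1 in those of bone marrow, against 1465 in B220+ cells (log2 ratio −2.14 ± 0.14 in spleen, −3.91 ± 0.13 in marrow). Stat4 had 55.6 in spleen and 37.7 in marrow Venus+, against 334 in B220+ cells (log2 ratio −2.59 in spleen, −3.15 in marrow), and Ifngr1 had 68.6 in spleen and 36.9 in marrow Venus+, against 249.5 in B220+ cells (log2 ratio −1.86 in spleen, −2.76 in marrow). Stat2, the partner of Irf9, had 51.7 in spleen and 20.2 in marrow Venus+, against 184 in B220+ cells (log2 ratio −1.83 in spleen, −3.18 in marrow). At the other end were Socs1, a feedback inhibitor of these kinases (log2 ratio 1.29 ± 0.16 in spleen, 0.78 in marrow), and the kinase Tyk2 (log2 ratio 0.91 in spleen, 0.58 in marrow). Bone marrow against spleen Venus+ cells had 0 higher and 3 lower of the 11 receptors, kinases and STATs, where 4.33% of all genes were higher and 15.2% lower.

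Of the 7 interferon regulatory factors on the array apart from Irf9, spleen Venus+ against B220+ cells had 1 higher and 3 lower (median −0.50), and bone marrow Venus+ cells 1 higher and 4 lower (median −1.43). Irf4, needed for plasma cell formation, was the higher one in both, with signals of 1128 in spleen and 688 in marrow Venus+, against 321 in B220+ cells (log2 ratio 1.81 in spleen, 1.10 in marrow). Irf8, known from B cells and myeloid cells, was lowest, with 127 in spleen and 50.2 in marrow Venus+, against 848 in B220+ cells (log2 ratio −2.74 in spleen, −4.08 in marrow). Of the nucleic acid sensors and adaptors, spleen Venus+ cells had 2 higher and 4 lower of 21 (median −0.14) and bone marrow Venus+ cells 0 higher and 8 lower of 20 (median −0.62). These counts include enzymes that are not sensors or adaptors. Among them were Samhd1 (log2 ratio −1.50 in spleen, −2.78 in marrow), Adar (−0.70 in spleen, −2.37 in marrow) and Trex1 (0.06 in spleen, −0.45 in marrow). Trim25, a ligase that activates the RNA sensor RIG-I, read 219 in spleen and 77.1 in marrow Venus+, against 581 in B220+ cells (log2 ratio −1.41 in spleen, −2.91 in marrow), and Ikbke, a kinase upstream of interferon genes, read 18.7 in spleen and 11.7 in marrow Venus+, against 5.86 in B220+ cells (log2 ratio 1.68 ± 0.22 in spleen, 0.99 in marrow).

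Other known interferon-stimulated genes, chosen from general knowledge of the response, also lay on both sides of B220+ cells. Stat2, Usp18 and Irf7 were counted here and in the lists above as well. Of 41 detected in both spleen Venus+ and B220+ cells, 4 were higher and 15 lower (median −0.34), and in bone marrow Venus+ cells 4 higher and 22 lower of 39 (median −1.42). Lgals3bp, a secreted glycoprotein, was the highest, with 180.4 in spleen and 283 in marrow Venus+, against 11.4 in B220+ cells (log2 ratio 3.99 ± 0.16 in spleen, 4.64 ± 0.16 in marrow). B2m, the light chain of MHC class I, had 22638 in spleen and 34060.0 in marrow Venus+, against 10011 in B220+ cells (log2 ratio 1.18 in spleen, 1.77 in marrow), and the chemokine gene Cxcl10 had 7.66 in spleen and 7.95 in marrow Venus+, against 1.96 in B220+ cells (log2 ratio 1.96 ± 0.54 in spleen, 2.02 ± 0.55 in marrow). Ms4a4c was lowest, with 28.1 in spleen Venus+ cells, not detected in bone marrow Venus+ cells and 905 in B220+ cells (log2 ratio −5.01 in spleen and at least 385-fold lower in marrow). Sp100, a nuclear body protein, had 60.5 in spleen and 29.8 in marrow Venus+, against 394 in B220+ cells (log2 ratio −2.71 in spleen, −3.72 in marrow). Plac8 stood on opposite sides, with 5558 in splenic and 383 in marrow Venus+ cells, against 2546 in B220+ cells (log2 ratio 1.13 in spleen, −2.73 in marrow). Of the interferon genes themselves, Ifnb1 was detected in B220+ cells alone at 1.38, and Ifng read 2.73 in spleen Venus+ and 10.9 in B220+ cells and was not detected in marrow Venus+ cells. Ifnl3 was higher in both Venus+ populations, with 8.68 in spleen and 12 in marrow Venus+, against 4.18 in B220+ cells (log2 ratio 1.05 in spleen, 1.52 in marrow), and Ifne was higher in marrow (log2 ratio 0.17 in spleen, 1.31 in marrow).

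**Figure D5:**
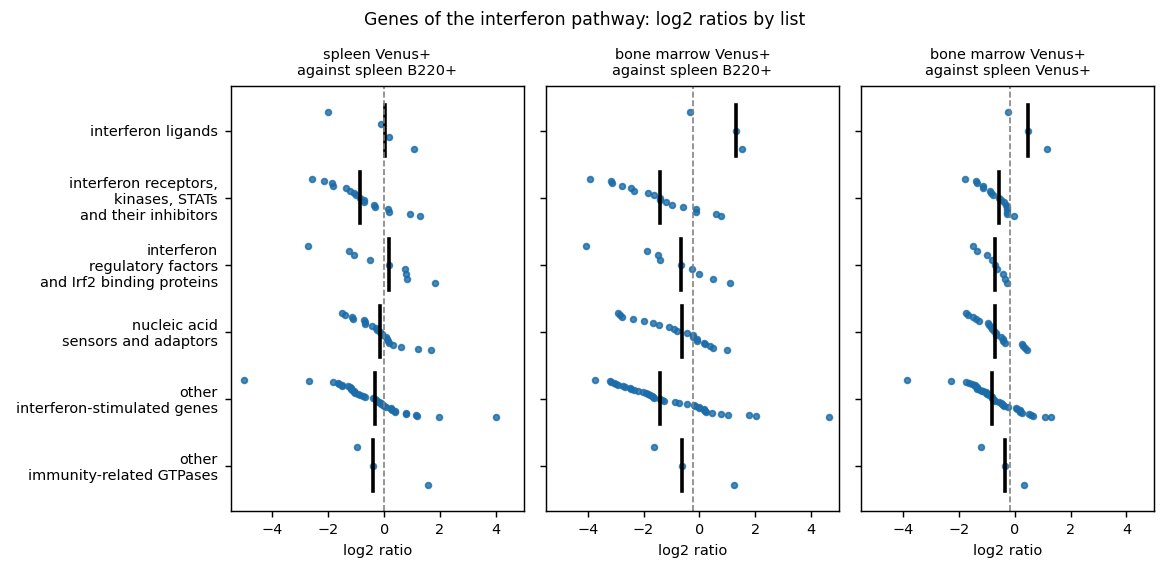
The log2 ratio (x axis) of genes of the interferon pathway that are not members, by list, in the 3 pairs of arrays. Each point is a gene detected on both arrays, black bars are list medians and the dashed line is the median of all genes. Receptors, kinases and STATs, drawn together with their inhibitors, lie mostly left of that line against B220+ cells, with medians of −0.86 in spleen and −1.41 in marrow Venus+ cells.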

How the data were processed

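Total RNA of each population was amplified, labelled with Cy5 and hybridized to a single-colour mouse oligonucleotide chip (Toray 3D-Gene), per the labels' protocols. The values used here are spot medians, the intensity that the deposited scanner files list per spot (per the file headers). A processed intensity table of the authors had a blank level taken off and the median of detected signals set to 25, as the series' design text says. The same recipe was computed here from the scanner files. For the blank level, the 2736 blank spots of an array were trimmed to their middle 90% and averaged. Detection required that mean plus 2 SD, and detection matched the authors' table for all probes (0 differences on each array). Spots flagged faulty (1 in spleen Venus+, 2 in bone marrow Venus+ and 0 in B220+ cells) were left out. A gene was read by its probe of highest mean log2 signal, with symbols as the platform annotation gives them, and older ones updated through RefSeq in an alternative. The symbols Gimap5, Oasl2 and Zbp1 are also synonyms of Gimap3, Oas1c and Igf2bp1, each of which has a probe of its own. Genes differing at least 2-fold and detected on both arrays counted as higher or lower.

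No test was possible with 1 array per population. The number of arrays, not depth, limits precision. The members and lists were chosen with earlier results of these data known. Members were named with values as the 10 highest and 10 lowest per comparison and the extremes of each family, the rest to account for all, and of the lists a few of the 3 highest and 3 lowest. Alternatives were the normexp background with an offset of 50 (limma 3.58.1, R 4.3.3), the authors' table, scaling to probes detected on all arrays, quantile normalization, a blank level from spots without a probe, dropping probes under a signal of 10, averaging probes, current symbols, a 3-fold mark and, chosen after seeing the data, leaving out the Gimap genes. The computation was tested on simulated arrays (Python 3.11.15, numpy 2.4.6, pandas 2.3.3).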

Additional observations from a re-analysis of the deposited data

Results flagged for a closer look

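Gbp2 differed between the Venus+ populations in the direction of its change against B220+ cells. Its signal in spleen Venus+ cells was 65.1 and that in bone marrow Venus+ cells 6.85, where B220+ cells had 39.5, so the log2 ratio against B220+ cells was 0.72 in spleen and −2.53 in bone marrow. The bone marrow ratio minus the spleen ratio was −3.25. The difference was not tested, since each population has 1 array. With the normexp background the ratios were 0.15 and −0.93, with the same signs.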

How the results depend on the processing

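No paired analysis was possible because each population has 1 array and no replicate numbers link the samples. Of 73 log2 ratios of named members, 45 were at least 2-fold. None of these 45 changed sign in a setting where it was measured. Under 2-fold in some setting came 22 of them, 21 with the normexp background. Its offset of 50 shrinks ratios of dim probes by construction, and the part of this in the drops was not tested. Sign changes of smaller ratios were not counted. They occurred, as for Zbp1, Ifitm3 and Gimap5 in spleen Venus+ against B220+ cells. For spleen Venus+ against B220+ cells, higher members numbered 1 with normexp and 8 with the blank level from spots without a probe, against 5, and 7 were 3-fold lower, against 11 at 2-fold. Higher and lower calls were thus 1 and 15 with normexp and 8 and 8 with that blank level. The median was −0.50 with normexp, −0.34 with that blank level and −0.31 without the Gimap genes. Over all genes it was −0.14 with normexp and 0.34 with that blank level, against −0.02 as processed here. For bone marrow Venus+ against B220+ cells, normexp gave 3 higher and 16 lower, against 8 and 19, and leaving out the Gimap genes 11 lower. The median was −0.89 with normexp, −0.85 with all-array scaling, −0.86 with quantile normalization, −0.77 with the blank level from spots without a probe, −1.31 without dim probes and −0.48 without the Gimap genes. Over all genes it was −0.26 with normexp, 0.01 with quantile normalization, −0.08 with that blank level and −0.41 without dim probes. All-array scaling moved the median of all genes to 0.05, against −0.24, so the members' median lay 0.90 below it in both. For bone marrow against spleen Venus+ cells, normexp gave 0 higher and 5 lower, all-array scaling 7 and 7, quantile normalization 6 and 8, and the 3-fold mark 0 higher, against 3 and 9. The median was −0.0861 with normexp, −0.16 with all-array scaling, −0.19 with quantile normalization, −0.26 without dim probes and −0.25 without the Gimap genes. Over all genes it was −0.0529 with normexp, 0.16 with all-array scaling, 0.08 with quantile normalization and −0.24 without dim probes. The members' median thus lay close to that of all genes with normexp and without dim probes. The cause of these shifts was not tested.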
